A study of Mus musculus with 4 samples.

Results

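The genes of the BMP and TGF-beta signaling pathway were examined in the frontonasal prominence (FNP), the swelling of the embryonic face that forms forehead and nose, of WT and MommeD43 (MD43) mouse embryos. The members were taken from a list of 46 gene symbols, and all 46 were found among the 33708 rows of autosomal genes in the deposited table. They comprised 16 ligands, 6 antagonists and extracellular modulators, 10 receptors, 8 Smads and 6 target genes. WT embryos were Smchd1+/+ and MD43 embryos Smchd1MommeD43/MommeD43, that is, homozygous for a chemically induced missense allele of Smchd1, which puts glutamic acid in place of alanine in the extended ATPase domain of a protein that takes part in gene silencing. All 4 embryos were on the FVB/NJ strain and were taken at E10.5 with 29 somites, with 2 embryos per genotype. By their titles, WT comprised 1 female and 1 male and MD43 comprised 2 males, although another listing by the authors calls the second WT embryo female. The second embryo of each genotype had the same mother, and the first embryos came from other mothers. The comparison asked which of these transcripts differ in level between MD43 and WT FNPs.

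Ligands of the TGF-beta superfamily are secreted dimers that bring together type I and type II receptor kinases at the cell surface. The receptors phosphorylate receptor Smads, of which SMAD1, SMAD5 and SMAD9 serve mostly BMPs, while SMAD2 and SMAD3 serve TGF-betas and activins. These join SMAD4 and enter the nucleus, where Id and Msx genes are well-known BMP targets. Secreted antagonists such as Noggin and Follistatin bind the ligands and keep them from the receptors. In the face, BMPs from the surface epithelium and the mesenchyme below it govern outgrowth and fusion of the facial prominences.

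Each genotype had a single value per gene, the log2 RPKM averaged over 2 libraries (RPKM are reads scaled for transcript length and library size), so no spread between embryos could be computed and no difference below was tested. The reads behind each value were recovered as the geometric mean of both libraries. The implied depth was 22328791 reads in MD43 and 16055882 in WT. Errors given with a difference are the smallest standard error that read counting allows (counting SE), and variation between embryos is not in them. Of all rows, 15377 had at least 10 reads in a genotype and were used, with a median difference (MD43 minus WT) of 0.01 on the log2 scale. Smchd1 itself was at 3.30 log2 RPKM in MD43 and 3.31 in WT, which is no check of the labels for a missense allele. In bulk tissue, fewer cells of a type and less RNA per cell cannot be told apart.

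Most of the pathway sat at nearly the same level in both genotypes, and a pair of genes stood apart. Gdf10, which encodes a BMP3-like ligand, and Fst, which encodes the activin-binding antagonist Follistatin, were at least 2-fold lower in MD43. No other member with enough reads to compare reached even 1.5-fold in either direction. Of the 46 members, 43 had at least 10 reads in a genotype, 23 of them higher and 20 lower in MD43, and their median difference was 0.01. The 2 genes past 2-fold made up 4.65% of the 43, where 4.11% of all used genes passed 2-fold in either direction (2.47% lower and 1.64% higher in MD43), so the share of the pathway past this size was near the background. At 1.5-fold the same 2 genes passed, against 10.7% of all used genes. Of the 43, 18 (41.9%) differed by more than 1.96 counting SEs, against 50.4% of all used genes.

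**Figure D1:**
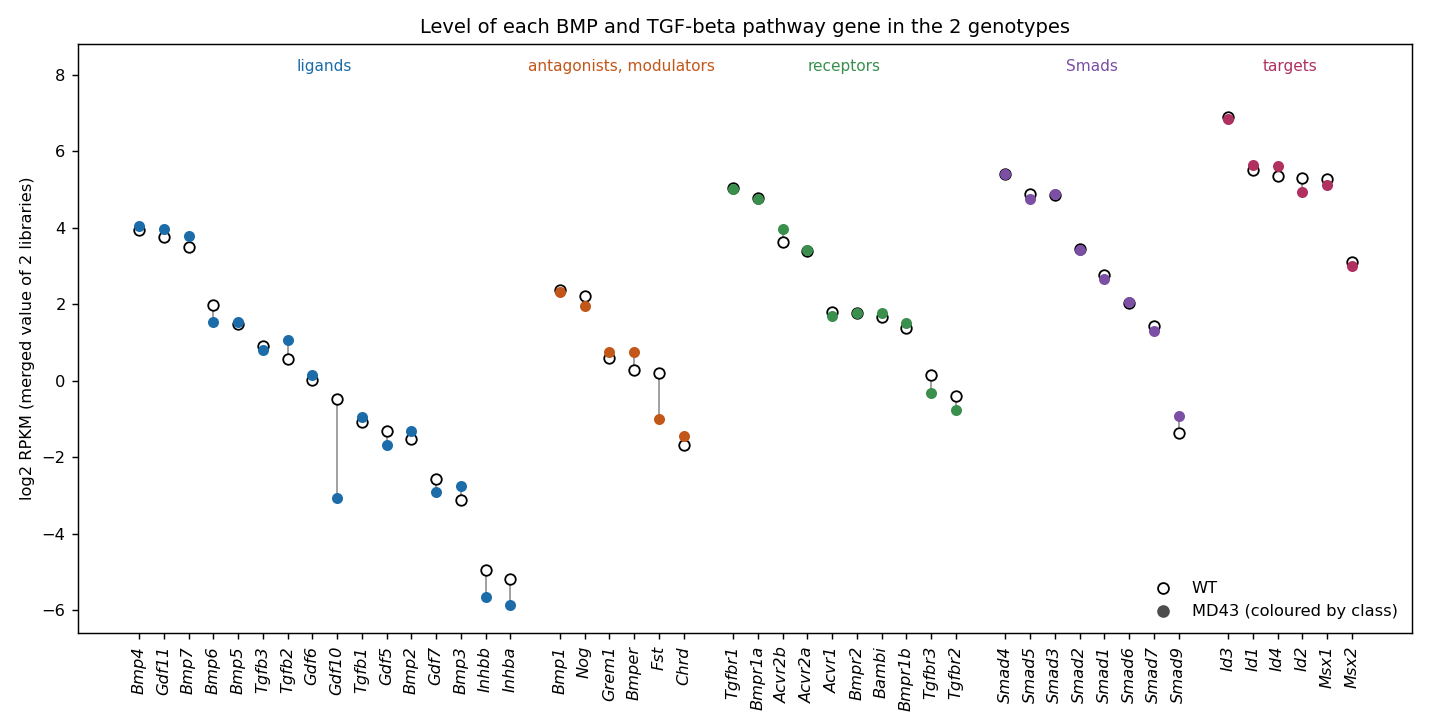
Level of each of the 46 genes, with log2 RPKM on the vertical axis and the genes ordered by WT level within each class. Open points are WT and filled points MD43, each the merged value of 2 libraries. The points of most genes nearly coincide, and the long gaps belong to Gdf10 (-3.07 in MD43, -0.48 in WT) and Fst, which had 0.19 in WT.

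Among the ligands, 9 of 13 used genes were higher in MD43 and 4 lower, with a median difference of 0.11. Bmp4 had the highest level, with 16.5 RPKM in MD43 and 15.3 in WT. This gene for a central BMP of epithelium and mesenchyme (ENSMUSG00000021835.15, GRCm38 chromosome 14, 46383520 to 46390669, minus strand) differed by 0.10 ± 0.06 on the log2 scale. Gdf11, whose product signals through SMAD2 and SMAD3, came next with 15.7 RPKM in MD43 and 13.6 in WT, a difference of 0.20 ± 0.04 (ENSMUSG00000025352.6, chromosome 10, 128882295 to 128891718, minus strand). Bmp7 followed with 13.7 RPKM in MD43 and 11.3 in WT, a difference of 0.28 ± 0.05. These 3 ligands were the most abundant in both genotypes.

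The other BMP ligands were far lower. Bmp5 had 2.92 RPKM in MD43 and 2.80 in WT, and Bmp6, its relative, had 2.89 and 3.92, a difference of -0.44 ± 0.09. Genes on the opposite strand overlap both, Gm26903 with 105 reads in MD43 and 76.6 in WT at Bmp5, and Txndc5 with 3835 and 2504 at Bmp6, where Bmp6 itself had 251 and 246. Bmp2, the closest relative of Bmp4, had only 0.404 RPKM in MD43 and 0.350 in WT. At 32.0 and 19.97 reads, its difference of 0.21 ± 0.29 was within the counting error. Gdf6, a ligand of joints and of the eye and skull, had 1.10 and 1.01 RPKM, and its relative Gdf5 had 0.311 and 0.402. Gdf7, at 4.24 reads in MD43 against 3.87, had too few to compare.

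Gdf10 (ENSMUSG00000021943.7, chromosome 14, 33923587 to 33937983, plus strand) had 0.119 RPKM in MD43 and 0.717 in WT. The MD43 value rests on 13.9 reads and the WT value on 60.0. The difference was -2.59 ± 0.30, or 6.02-fold lower in MD43, and it ranked 39th from the lowest of the 15377 used genes. Its size depended on the low levels, and was -1.90 with 0.1 RPKM added to both values and -0.62, under 2-fold, with 1 RPKM added. The values allow the product of the reads of the 2 libraries of a genotype to be read off, which was 192 for MD43 and 3600 for WT. The most even split of these products is 12 and 16 reads in MD43 and 60 and 60 in WT, and more uneven splits give the same values. Genes with as few reads vary more, and among the 4141 genes with a mean of 20 to 200 reads 3.55% were at least 2-fold lower in MD43. Bmp3, the nearest relative of Gdf10 in the family, was at 24.3 reads in MD43 against 13.8 in WT, and its difference of 0.34 ± 0.34 went the other way within its counting error.

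The sequence before the Gdf10 start is shown because this member had the largest difference. It is the 250 bases before the RefSeq start on the plus strand of GRCm38.p6, chr14:33923337-33923586, with each CpG, the dinucleotide that DNA methylation marks, in capitals.
Gdf10: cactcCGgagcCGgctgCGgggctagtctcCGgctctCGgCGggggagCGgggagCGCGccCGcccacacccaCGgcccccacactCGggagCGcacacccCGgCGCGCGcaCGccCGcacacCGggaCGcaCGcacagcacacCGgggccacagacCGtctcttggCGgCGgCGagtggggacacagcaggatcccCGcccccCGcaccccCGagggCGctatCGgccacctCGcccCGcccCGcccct
These letters hold 35 CpGs, and 97.4% of the 32851 RefSeq promoter windows of this length hold as many or fewer. RefSeq windows were matched for 31 of the 46 members, with a median of 22 CpGs over their 36 windows against 6 over all windows, so a CpG-rich start was common in the pathway. Gdf11, with 33 CpGs, was at 13.6 RPKM or more in both genotypes.

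Of the TGF-beta ligands, Tgfb2 was the most abundant in MD43, with 2.08 RPKM in MD43 and 1.495 in WT, and its difference of 0.48 ± 0.11 was the highest of all 43 members. Tgfb3, which palate fusion requires, had 1.74 and 1.87 RPKM, a difference of -0.11 ± 0.13. Ttll5 overlaps Tgfb3 on the opposite strand with 738 and 459 reads, against 131 and 102 for Tgfb3. Tgfb1 had 0.517 and 0.478 RPKM, with 58.2 and 38.7 reads behind them. The activin subunit genes were nearly absent. Inhba was at 2.45 reads in MD43 against 2.83 in WT, and Inhbb at 1.90 against 2.24. For Inhbb the products fix the counts, with 4 reads in 1 MD43 library and none in the other, and with 5 reads and 1 read in the WT libraries. No difference is given for these 2 genes.

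Antagonists and extracellular modulators were measured in full, 3 higher and 3 lower in MD43, with a median difference of 0.06. Fst (ENSMUSG00000021765.9, chromosome 13, 114452290 to 114458951, minus strand) had 0.501 RPKM in MD43 and 1.14 in WT. The reads behind these values were 51.4 and 84.2. The difference was -1.19 ± 0.18, or 2.28-fold lower, and ranked 257th from the lowest of all used genes. With 1 RPKM added to both values it was -0.51, under 2-fold. The most even split of the reads is 48 and 55 in MD43 and 77 and 92 in WT. More uneven splits give the same values, so the spread between libraries is not known. An antisense gene, Gm47040, overlaps Fst on the opposite strand with 1.41 reads in MD43 against 3.74 in WT, and whether the counting used strand is not stated. The ligands that Follistatin holds best, the activins, were the ones nearly absent from the tissue, whereas Gdf11 and Bmp7, which it also binds, were among the 3 most abundant.

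Bmp1 was the most abundant gene of this class and encodes not a ligand but the metalloprotease that cleaves Chordin and procollagen. It had 5.03 RPKM in MD43 and 5.13 in WT, a difference of -0.03 ± 0.05 (chromosome 14, 70474558 to 70520234, minus strand). Nog, which encodes Noggin (chromosome 11, 89300638 to 89302332, minus strand), had 3.88 and 4.67 RPKM, a difference of -0.27 ± 0.12. Grem1, for another BMP antagonist, had 1.68 RPKM in MD43 and 1.51 in WT. Bmper, for a Chordin-like BMP binder, had 1.68 and 1.22 RPKM, and its difference of 0.46 ± 0.13 was the highest of the class. Chrd, for Chordin, had 0.366 and 0.313 RPKM. Summed over the class, the level was 13.1 RPKM in MD43 and 14.0 in WT, and that of the ligands 58.2 and 53.7.

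**Figure D2:**
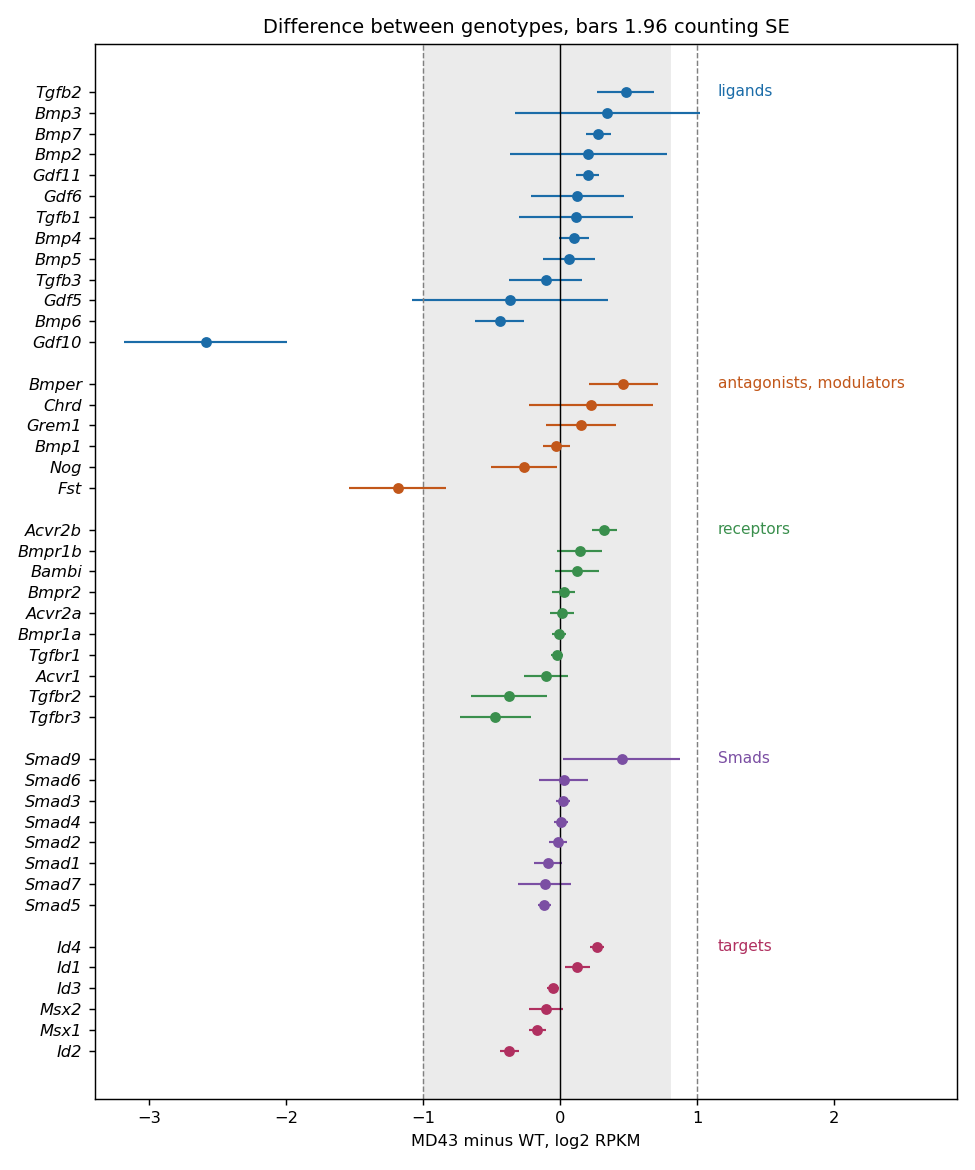
Difference between genotypes (MD43 minus WT, log2 RPKM) for the 43 genes used, with bars of 1.96 counting SEs. Dashed lines mark 2-fold and the gray band holds the middle 95% of all used genes, from -0.996 to 0.80. Gdf10 and Fst lie outside the band and every other gene lies inside it.

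The receptor genes differed less, from -0.48 to 0.32, with 5 higher and 5 lower and a median difference of 0.00. Tgfbr1, the type I receptor for TGF-betas (chromosome 4, 47353222 to 47414931, plus strand), had 32.4 RPKM in MD43 and 32.9 in WT, a difference of -0.02 ± 0.02. Bmpr1a, the main type I receptor for BMPs (chromosome 14, 34410734 to 34503341, minus strand), had 27.1 and 27.3 RPKM, a difference of -0.01 ± 0.03. The other BMP type I receptors, Bmpr1b and Acvr1, had 2.86 and 3.21 RPKM in MD43 and 2.60 and 3.45 in WT. Type II receptors were led by Acvr2b, with 15.5 RPKM in MD43 and 12.4 in WT, a difference of 0.32 ± 0.05, the highest of the class. Acvr2a was at 3.41 log2 RPKM in MD43 and 3.40 in WT, and Bmpr2 at 3.44 and 3.38 RPKM. Orc4 overlaps Acvr2a on the opposite strand with about as many reads, 1336 in MD43 and 979 in WT.

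Tgfbr2 and Tgfbr3 were scarce and lower in MD43. Tgfbr2, the type II receptor for TGF-betas, had 0.590 RPKM in MD43 and 0.764 in WT, a difference of -0.37 ± 0.14. Tgfbr3, for the co-receptor betaglycan, had 0.805 and 1.12 RPKM, a difference of -0.48 ± 0.13. Bambi, for a decoy receptor without a kinase and itself a BMP target, had 3.44 and 3.16 RPKM.

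Smad genes were the most even class, with 7 of 8 between -0.12 and 0.02. Smad4, for the partner of all receptor Smads (chromosome 18, 73639009 to 73703780, minus strand), had 42.6 RPKM in MD43 and 42.5 in WT, a difference of 0.00 ± 0.03. Smad3 (chromosome 9, 63646767 to 63757994, minus strand) had 29.6 and 29.2 RPKM, and Smad2 had 10.7 and 10.8. Of the BMP Smads, Smad5 had 27.0 and 29.3 RPKM, a difference of -0.12 ± 0.02, and Smad1 had 6.37 and 6.77. Smad9, the last of them, stood apart at 0.529 RPKM in MD43 and 0.388 in WT, a difference of 0.45 ± 0.22 on 63.5 and 33.4 reads. The genes for the inhibitory Smads, which the pathway itself induces, were at 4.13 and 4.06 RPKM (Smad6) and at 2.48 and 2.68 RPKM (Smad7).

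The target genes were the most abundant of the pathway and went both ways, 2 higher and 4 lower in MD43. Their median difference was -0.08, and none reached 1.5-fold. Id3 led with 115 RPKM in MD43 and 119 in WT, a difference of -0.05 ± 0.02 (chromosome 4, 136143497 to 136145755, plus strand). Id1 (chromosome 2, 152736251 to 152737410, plus strand) had 49.4 and 45.3 RPKM, a difference of 0.12 ± 0.05. Id2 was lower, with 30.3 RPKM in MD43 and 39.2 in WT, a difference of -0.37 ± 0.04, and Id4 was higher, with 48.7 and 40.5 RPKM, a difference of 0.27 ± 0.03. Id proteins dimerize with basic helix-loop-helix factors and keep them from DNA. Msx1, for a homeobox factor of facial mesenchyme and tooth buds, had 34.5 and 38.8 RPKM, a difference of -0.17 ± 0.03, and its paralog Msx2 had 8.03 and 8.64.

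The Id4 value, like those of Bmp4, Bmp5, Bmp6, Gdf5, Tgfb3, Chrd, Fst and Acvr2a among others, carries a limit from overlapping genes. A pair of non-coding genes overlap Id4 on the opposite strand, and both were higher in MD43. Gm49291 was higher by 0.62 with 387 reads against 181 in WT, and A330033J07Rik by 0.74 with 225 against 96.9. If strand was not used in the counting, reads from stretches that these members share with their opposite-strand partners cannot be assigned to either gene. These stretches are parts of the genes, while the reads given for the partners are those of the whole genes. The overlap of Bmp6 with Txndc5, for example, runs only from 38500079 to 38500302 on chromosome 13.

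The RefSeq promoter windows of Id2 and Id4 are shown because these Id genes differed in opposite directions and both windows hold GGCGCC. This is a GC-rich sequence that BMP Smads can bind. The motif reads the same on both strands and is in capitals. Each line is the 250 bases before the RefSeq start in GRCm38.p6, read 5′ to 3′ along the gene, chr12:25096093-25096342 on the minus strand for Id2 and chr13:48260866-48261115 on the plus strand for Id4. The bases after the RefSeq start were found near the beginning of 2 transcripts of Id2 in the GENCODE annotation and of 0 of Id4. In that annotation Id4 begins at 48261228, so its window may not be the one used.
Id2: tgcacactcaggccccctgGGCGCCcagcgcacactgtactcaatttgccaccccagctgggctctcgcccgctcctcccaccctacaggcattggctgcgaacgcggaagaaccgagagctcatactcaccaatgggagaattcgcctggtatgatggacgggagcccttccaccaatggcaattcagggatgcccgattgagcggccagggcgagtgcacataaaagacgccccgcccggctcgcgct
Id4: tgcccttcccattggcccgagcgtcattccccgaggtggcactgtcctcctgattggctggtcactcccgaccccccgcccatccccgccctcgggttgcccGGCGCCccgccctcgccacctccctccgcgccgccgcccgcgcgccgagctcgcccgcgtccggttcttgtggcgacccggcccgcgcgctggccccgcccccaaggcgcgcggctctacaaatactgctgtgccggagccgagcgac
Over the members, 9 of 36 windows held GGCGCC, among them windows of Chrd, Grem1, Bmpr1a, Bmpr2, Tgfbr1, Smad5 and Smad9, against 9.59% of all windows. The member windows were also richer in G and C, with a median of 67.4% against 52.4%, and no background matched on this was drawn, so the motif is not shown to be particular to the pathway. None of the 10 ligand windows held it, nor did those of the targets Id3, Msx1 and Msx2. The palindrome GTCTAGAC, made of joined Smad boxes, was in no member window and in 0.167% of all windows. Such matches are letters and not measured binding, and windows with the motif belonged to genes on both sides of 0.

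Split by branch, the BMP and the TGF-beta arms both had medians close to 0. The 13 used genes of BMP ligands, BMP type I receptors and BMP Smads had a median difference of 0.06, from Bmp6 at -0.44 to Smad9 at 0.45. Gdf10 (-2.59) and Bmp3 (0.34) were not placed in this branch, and with them the range would begin at Gdf10. The 8 used genes of the TGF-beta and activin branch had a median of 0.00, from Tgfbr2 at -0.37 to Tgfb2 at 0.48, without the co-receptor gene Tgfbr3 (-0.48), which was not placed in it. Summed levels were 105 RPKM in both genotypes for the BMP branch and 93.4 in MD43 against 91.2 in WT for the other. The 33 members with at least 100 reads in both genotypes included no gene past 1.5-fold, while 2.35% of the 10757 genes at this depth passed it.

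**Figure D3:**
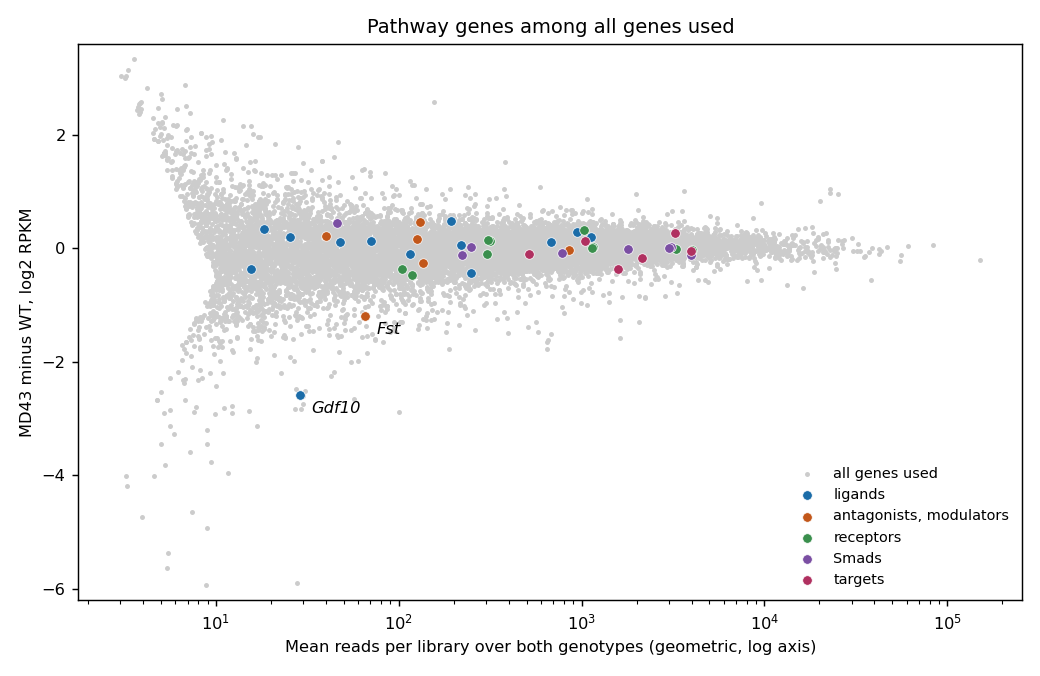
Difference between genotypes (MD43 minus WT, log2 RPKM) against the mean reads per library on a log axis, with each used gene as a gray point and the 43 pathway genes colored by class. The scatter of all genes widens below 100 reads, where Gdf10 and Fst lie in its lower part, and pathway genes with more reads lie close to 0.

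A second list of 97 pathway genes outside the 46 was examined in the same way. Of these, 93 were in the table, the other 4 lie on the X chromosome, which the table leaves out, and 70 had at least 10 reads in a genotype. Their median difference was -0.04, with 30 higher and 40 lower. In MD43, 3 of the 70 were at least 2-fold higher and 2 at least 2-fold lower (7.14% in all, against 4.11% of all used genes). At 1.5-fold, 5 were higher and 5 lower, against 4.24% and 6.43% of all used genes. The 22 intracellular regulators, such as the ubiquitin ligases Smurf1 and Smurf2 and the co-repressor genes Ski and Skil, held to a range of -0.47 to 0.17 and included none past 1.5-fold. Nor did the 6 used receptor genes, from -0.48 for the co-receptor gene Rgmb to 0.11 for Rgma.

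Of the 10 genes of this second list past 1.5-fold, 9 had at most 30.9 reads in either genotype, and the other was Tll2. With 1 RPKM added to both values, the differences of these 9 lay between -0.24 and 0.37. Among the ligands, Mstn, for myostatin, was 2.56-fold higher in MD43, with 30.9 reads against 8.66 in WT, a difference of 1.36 ± 0.39. Amh, for the anti-Müllerian hormone, had 13.3 reads in MD43, while 1 WT library held none and the other 2. Its difference was 2.83, and the interval that counting alone allows ran from 1.02 to 4.64. Nodal had a mean of 10.2 reads in MD43 and of 3.91 in WT, where the product fixes 17 reads in 1 library and none in the other. The WT embryos themselves thus differed widely at this gene.

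Among the modulators, Tll1, for a protease that cleaves Chordin, was 3.57-fold higher, with 20.5 reads against 4.12 in WT, and again the WT libraries lay far apart, with 1 read and 17 reads. Its paralog Tll2 went the other way with more reads, 75.1 in MD43 against 89.8, and was 1.66-fold lower, a difference of -0.73 ± 0.16. It was named after its value was seen. Htra3, for a secreted serine protease, was 2.62-fold lower, with 12.7 reads against 23.9. Smoc2 and Dcn, for matrix proteins that bind growth factors or their partners, had differences of -0.82 ± 0.32 and -0.80 ± 0.33. The early bone factors were near the detection limit and went both ways. Runx2, at 7.94 reads in MD43 against 13.9, had a difference of -1.28 ± 0.45, and Sp7, at 12.0 against 5.48 reads, a difference of 0.66 ± 0.53. Supt3 overlaps part of Runx2 on the opposite strand with 359 reads in MD43 and 305 in WT, so the limit given for Id4 holds for Runx2 too. Dlx5 and Dlx3, for homeobox factors downstream of BMPs in ectoderm and arch, were better covered and stayed under 1.5-fold, with differences of 0.52 ± 0.10 and 0.49 ± 0.09. They were chosen for mention after their values were seen.

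**Figure D4:**
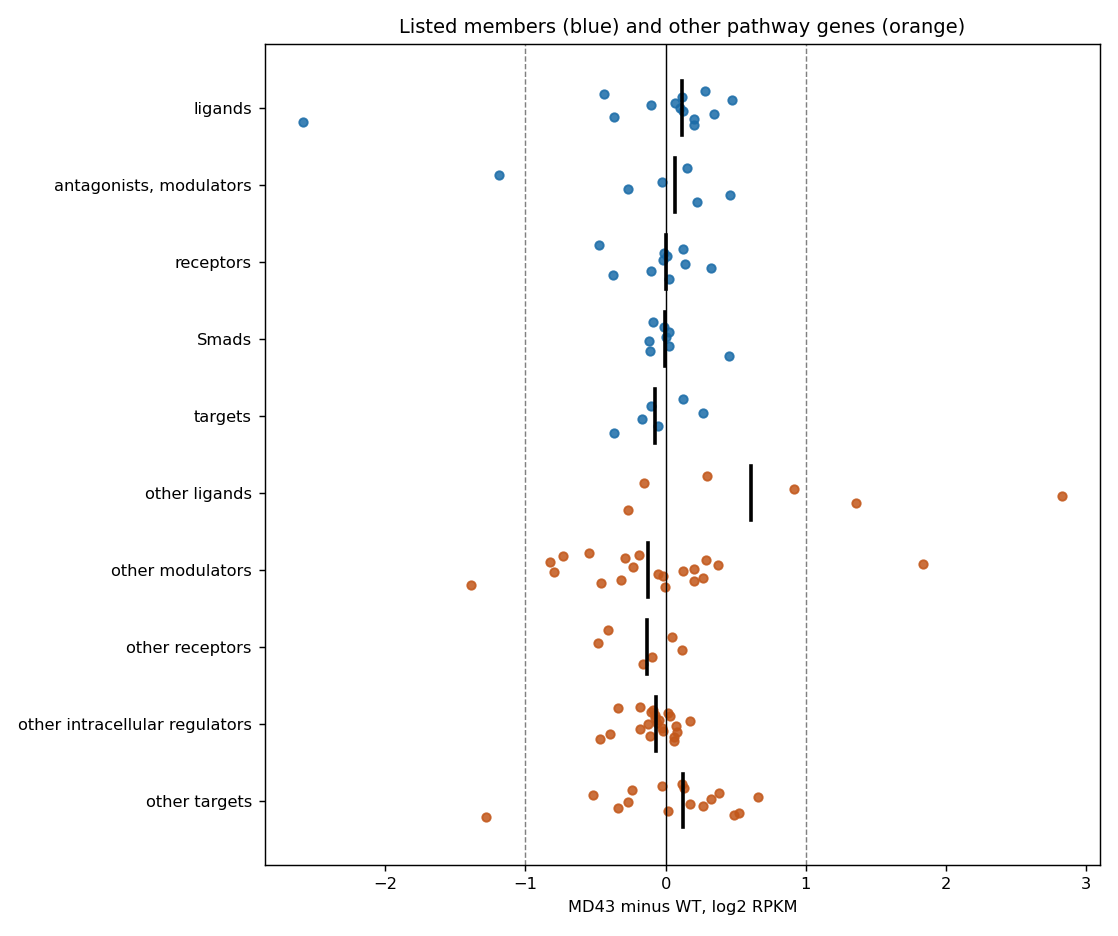
Differences (MD43 minus WT, log2 RPKM) of used genes in the 5 classes of the 46 listed genes (blue) and in 5 classes of the second list (orange), 1 point per gene, with black bars at the medians and dashed lines at 2-fold. Medians lie between -0.13 and 0.12 except for the 6 other ligands, at 0.61.

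Markers of cell types in or beside the dissected piece were compared between the genotypes. The neural crest mesenchyme list, which defines the FNP, was present in both genotypes, with 10 of 10 genes used and a summed level of 145 RPKM in MD43 and 146 in WT. Surface ectoderm markers were higher in MD43 in 8 of 10 genes, with a median difference of 0.60 and a summed level of 199 RPKM against 131. Bmp4, Bmp7 and Dlx3, which ectoderm also expresses, were higher in MD43 by less than this median, Bmp4 within 1.96 counting SEs of 0. These genes were named here with their values known. Of the 43 used members, 20 were lower in MD43, Tgfb3 (-0.11) and Msx2 (-0.10) among them. Markers of the diencephalon and hypothalamus, the brain floor and wall behind the FNP, were lower in 9 of 9 used genes, with a median difference of -1.40 and a summed level of 33.0 RPKM against 56.1. Gdf10 was lower by more than this median and Fst by less. The marker lists were chosen with earlier results of these data known, so their medians are no independent measure of tissue content. Red blood cell markers were higher in 7 of 7 genes, at 6010 against 3170 RPKM in sum. Forebrain neuroepithelium summed to 236 RPKM in MD43 and 226 in WT, endothelium to 22.9 and 25.3, and macrophages to 3.18 and 3.53. No gene of these 7 lists was without reads in both genotypes. The part of tissue content in the Gdf10, Fst, Bmp7 and other differences was not tested.

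**Figure D5:**
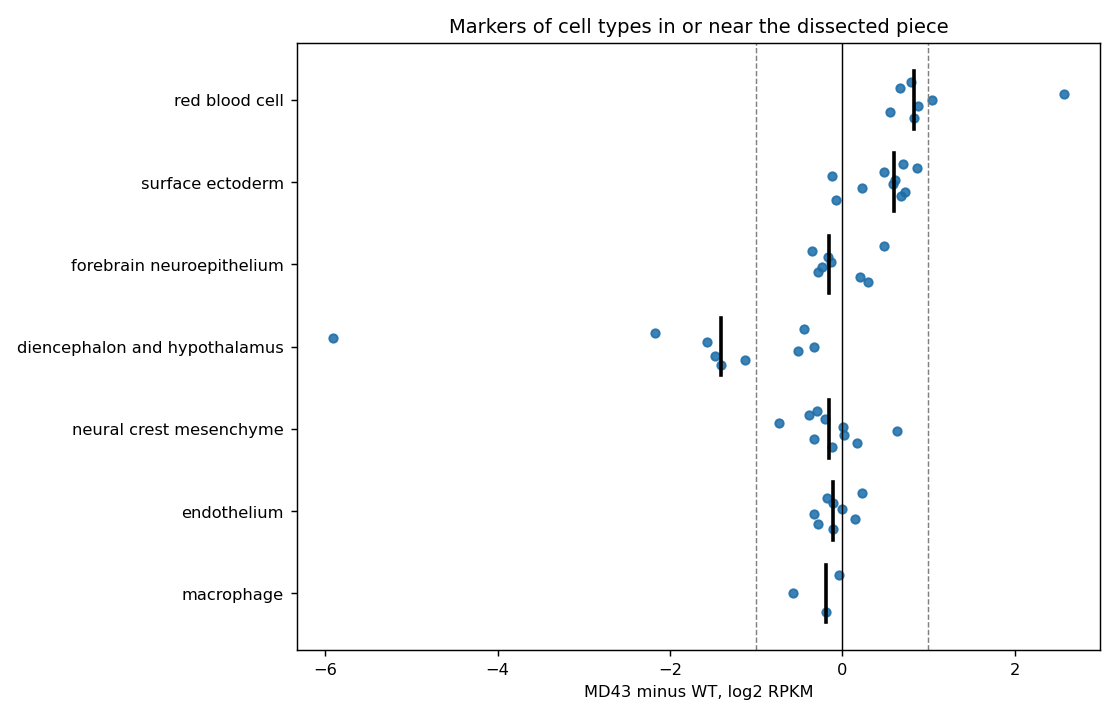
Differences (MD43 minus WT, log2 RPKM) of used marker genes in 7 lists, 1 point per gene, with black bars at the medians and dashed lines at 2-fold. Red blood cell (median 0.84) and surface ectoderm (0.60) markers lie mostly to the right of 0, diencephalon and hypothalamus markers (-1.40) to the left, and the other medians between -0.19 and -0.11.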

How the data were processed

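FNPs of 4 embryos, 2 per genotype, were sequenced as stranded mRNA libraries from 100 ng of total RNA. Per the submitters' processing notes and the study's methods, the authors trimmed reads with Trim Galore 0.4.4, mapped them with HISAT2 2.0.5 to GRCm38.p6 and quantified genes in SeqMonk. The deposited values are log2 RPKM, which the authors scaled by transcript length and library size and averaged per genotype. The table also holds the authors' FDR (q-value), fold change and mean, which were not used.

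Exon lengths came from GENCODE M21, matched for 33101 rows. The most frequent difference, -0.4758 in 12862 rows, is that of equal reads in both genotypes, mostly none, and fixes the scale if a library without reads counts as 0.9 reads. Of the read products under 1000 so obtained, 99.9% were within 0.01 of a whole number, of 0.9 times one or of 0.81, in both genotypes. The recovery script was checked on simulated counts averaged in the same way. A gene was used if either genotype reached 10 reads. With 1 value per genotype no test was possible, and calls are folds of 2 or 1.5.

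Members, classes and lists were chosen with earlier results of these data known, and the branches after their values. Named in full are members past 1.5-fold, the 2 highest of each class, and up to 4 genes past 1.5-fold per class of the second list, with other members by class. The backgrounds by depth were added after the data were seen. Counting errors and intervals cover counting alone. Alternatives were pseudocounts, centering, other filters and a length correction (Python 3.11.15, pandas 2.3.3).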

Additional observations from a re-analysis of the deposited data

How the results depend on the processing

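With a pseudocount of 1 RPKM no member passed 2-fold (0 of 43), since this pseudocount exceeds the level of Gdf10 in both genotypes and of Fst in MD43, and their differences were then -0.62 and -0.51. With 0.1 RPKM (Gdf10 -1.90, Fst -1.05), with centering on the median of all used genes, with at least 50 reads, with no filter and after a correction for transcript length, 2 members passed. The 42 alternative values of the 7 class and list medians stayed within the counting error of the median, and that of all members lay between -0.003 and 0.021. Except for the targets, this error was larger than the median itself (0.141 against 0.114 for the ligands). A median could therefore reach 0 and still count as unmoved. Many of these alternatives could move a median only little. The filters kept the same antagonists, receptors, Smads and targets, centering shifted all values by 0.0057, and the length fit covered 0.249% of the variance. Of 84 alternative values of the 21 named genes, 73 stayed within 1.96 counting SEs, and 11 moved, all under a pseudocount. Among the 73, 2 near 0 changed sign, Smad4 (-0.001 with centering) and Bmpr1a (0.004 with the length correction). The medians of all members (-0.003 with no filter), receptors (-0.005 with centering) and Smads (0.006 with the length correction) also crossed 0, so no direction is read from them. No paired analysis was possible because both libraries of a genotype were merged into 1 value, and for the same reason leaving out a library and count-based tests were not run. Low reads limit Gdf7, Inhba and Inhbb, for which no difference could be given.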

Other observations

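The genes around Gdf10 and Fst were examined. Within 250 kb of Gdf10, 3 genes had at least 10 reads in a genotype. Zfp488, a zinc finger gene on the minus strand 29087 bp away, was higher in MD43, with 10.95 reads against 2.51 in WT, where 1 library held 7 reads and the other none. Its difference was 1.65 ± 0.71. Anxa8 had 30.4 and 28.98 reads and Gprin2 had 79.1 and 61.0, with differences of -0.41 ± 0.26 and -0.10 ± 0.17. Gdf2, for another BMP ligand, begins 3056 bp beyond Gdf10 and had no read in either genotype. Within 250 kb of Fst, Ndufs4, for a subunit of respiratory complex I, was the only gene with at least 10 reads, and at 5.10 log2 RPKM in MD43 and 5.15 in WT it differed by -0.05 ± 0.03. Gdf10 and Fst were chosen for this look after their values were seen.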
